A study of Mus musculus with 10 samples.

Results

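Type I interferon-stimulated genes are the genes that cells switch on when interferon-alpha or interferon-beta reaches them. The 33 members described here were chosen by gene symbol, and each was found under 1 of the 55487 gene identifiers in each of 2 tables of liver counts, one for a diet experiment and one for an inhibitor experiment. All livers were taken from 8-week-old C57BL/6J mice, labelled male, after partial hepatectomy (PHx), an operation that removes most of the liver and starts the regrowth of the rest. The HFD group ate a high-fat diet for 7 days before PHx and the chow group stayed on a regular diet, and liver was taken 40 hours after PHx, with 3 libraries per group. The SSO group was given 40 mg/kg SSO 1 day before PHx and the vehicle group the solvent alone, and liver was taken 48 hours after PHx, with 4 libraries in each of them. SSO is not spelled out in the labels; in work on fatty acid uptake the abbreviation usually means sulfosuccinimidyl oleate, an inhibitor of the fatty acid receptor CD36. Every group was operated on, so the values describe regenerating liver only. The series' design text gives 3 mice in each diet group, matching the 3 libraries. For the inhibitor experiment the protocol gives 8 mice per group, but nothing says that the 4 libraries of a group came from separate mice. Its p-values therefore measure the spread between these libraries, which may be technical.

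Type I interferons bind a receptor of IFNAR1 and IFNAR2 on the cell surface, whose kinases activate STAT2. STAT2 and IRF9 are subunits of the complex ISGF3, which enters the nucleus and binds the interferon-stimulated response element (ISRE) in the promoters of the target genes. The products sense foreign nucleic acid, degrade or block viral RNA, modify proteins with ISG15, and feed back on the signal itself. In liver, hepatocytes, Kupffer cells and endothelial cells can all mount this response, and plasmacytoid dendritic cells and macrophages are known producers of the interferons.

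Each diet library held 31.9 to 39.9 M counts, and each inhibitor library 25.2 to 30.4 M. Levels are given as CPM, counts scaled to a common library total after trimmed-mean normalisation. The liver label was met in every library, where hepatocyte markers summed to at least 64184 CPM and at most 107430.0 CPM. Vehicle libraries stood apart from each other in the inhibitor experiment. Along its first principal component, which holds 45.8% of the variance, vehicle 1 scored -97.3, vehicle 2 scored 52.5, vehicle 3 scored -92.8 and vehicle 4 scored -2.89, whereas SSO libraries scored 31.8 to 40.5. Mitochondrial genes took 15.2% to 17.6% of the counts in SSO libraries, against 4.99%, 22.5%, 11.5% and 9.15% in vehicle 1 to 4, so vehicle 2 lay above every SSO library and the other vehicle libraries below; the part of this difference in the results was not tested. The 8 libraries of that experiment went against the label male, with 698 to 1772 CPM of the inactive-X transcript Xist and 0 counts over the Y-linked genes. The lack of Y-linked counts held for both of its groups and does not separate SSO from vehicle. Xist had 1580.5 to 1772 CPM in SSO libraries and 698 to 1608 CPM in vehicle libraries, where only vehicle 2 reached the SSO range. The part of this Xist difference in the results was not tested.

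The promoter sequences of 5 members are shown because ISGF3 acts through them. The core of the ISRE was searched as GAAANNGAAA or its reverse complement TTTCNNTTTC, where N is any base, in RefSeq windows of build GRCm38.p6 that run from 250 bases before to 50 bases after a start site. Of the 33 members, 24 had a window, and Oas2, Mx1, Mx2, Usp18, Dhx58, Rtp4, Zbp1, Parp14 and Ifi27l2a had none. The core was found for 15 of the 24 members, against 3.44% of all 32851 windows. The motif TTCNNNGAA, called GAS and known from the interferon-gamma response, was found for 4 of the 24, against 8.3% of all windows. A match describes the letters and does not show that a factor was bound.

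The stretches below come from the bases before the start site that lie in no annotated exon, each read 5′ to 3′ on the strand of its gene, with every match to the ISRE core in capitals. Rsad2 (chr12:26456453-26456652, minus strand) is the called member with a core, and Cmpk2 (chr12:26469015-26469203, plus strand) is its called neighbour without one. Isg15 (chr4:156200819-156201018, minus strand), Ifit1 (chr19:34640744-34640870, plus strand) and Bst2 (chr8:71537473-71537672, minus strand) were chosen after their values were seen. Irf9, also called and without a core, is not printed, and its windows lie inside the annotated gene.
Rsad2: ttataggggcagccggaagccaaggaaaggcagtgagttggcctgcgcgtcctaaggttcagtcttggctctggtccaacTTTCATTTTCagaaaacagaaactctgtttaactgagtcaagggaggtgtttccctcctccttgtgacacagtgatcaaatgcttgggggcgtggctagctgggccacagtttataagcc
Cmpk2: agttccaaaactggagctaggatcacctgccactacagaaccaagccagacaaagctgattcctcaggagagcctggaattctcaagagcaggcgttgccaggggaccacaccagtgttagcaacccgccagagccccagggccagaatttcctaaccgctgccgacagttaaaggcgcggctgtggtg
Isg15: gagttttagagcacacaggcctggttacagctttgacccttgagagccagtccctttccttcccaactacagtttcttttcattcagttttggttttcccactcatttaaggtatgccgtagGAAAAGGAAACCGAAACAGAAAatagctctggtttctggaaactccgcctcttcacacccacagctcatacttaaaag
Ifit1: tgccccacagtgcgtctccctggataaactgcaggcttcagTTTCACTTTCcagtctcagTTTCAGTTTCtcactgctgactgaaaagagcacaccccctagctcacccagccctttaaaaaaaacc
Bst2: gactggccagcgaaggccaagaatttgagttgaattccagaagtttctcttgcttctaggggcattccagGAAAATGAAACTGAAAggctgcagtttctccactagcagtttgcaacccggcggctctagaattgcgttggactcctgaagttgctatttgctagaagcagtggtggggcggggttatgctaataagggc
Isg15 held 3 cores that overlap each other, starting 78, 72 and 66 bases before its start site. Ifit1 held 2 separate cores, at 104 and 85 bases before the start, and Bst2 held 2 overlapping ones at 130 and 124 bases. Rsad2 held 1 core, at 120 bases. The cores of the copies Ifit3 and Ifit3b had the same letters as those of Ifit1, TTTCACTTTC and TTTCAGTTTC.

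The interferon genes lay higher in HFD livers than in chow livers across the whole list. All 33 members passed the filter on low counts and all 33 had a log2 fold change above 0, with a median of 1.07, against a median of -0.02 over all 15589 genes tested. The changes ran between 0.18 for the RNA sensor Ddx58 and 2.15 for the nucleotide kinase Cmpk2, and 17 members differed at least 2-fold. EdgeR called 4 members higher and 0 lower at an adjusted p under 0.05, namely Irf9, Rsad2, Cmpk2 and Parp14, where it called 1.6% of all genes higher and 0.718% lower (249 and 112 genes; 336 and 60 with scaling by library size alone). At an unadjusted p under 0.05, 26 members were higher, against 7.52% of all genes. Every HFD library lay above every chow library for 23 members, against 11.2% of all genes.

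The size of the difference varied from liver to liver. The geometric mean of the 33 members was 10.3, 8.72 and 12.8 CPM in HFD 1, 2 and 3, against 6.81, 3.98 and 3.48 CPM in chow 1, 2 and 3. HFD 3 was the highest HFD library for 27 members. Chow 1 was the highest chow library for 28 members, against 35.1% of all genes. Without chow 1 edgeR called 17 members higher (2.59% of all genes were), without chow 2 it called 0 (0.838%) and without chow 3 it called 2 (1.46%). Without HFD 1 it called 0 (0.469% of all genes), without HFD 2 it called 1 (0.84%) and without HFD 3 it called 0 (0.642%). Irf9, Rsad2 and Cmpk2 were each still called in 2 of these 6 fits, and Parp14 in 0. DESeq2 called 19 members higher (3.06% of all genes), and edgeR without a filter on low counts called 13 (1.52% of all genes).

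In SSO livers the same list lay lower than in vehicle livers, without a call. Of the 33 members, 32 had a log2 fold change below 0, and Bst2, a membrane protein that tethers virus particles, had 0.14. The median was -2.15, against -0.04 over all 15788 genes tested, and 17 members were at least 4-fold lower by their fitted change. EdgeR called 0 members, where it called 0.317% of all genes higher and 0.133% lower (50 and 21 genes; 33 and 4 with scaling by library size alone). At an unadjusted p under 0.05, 29 members were lower, against 12.5% of all genes, and limma-voom called 0 members (0.0697% of all genes lower).

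The vehicle livers did not form 1 level. The geometric mean of the members was 20.7, 11.9, 19.8 and 15.9 CPM in SSO 1 to 4, against 104, 63.7, 120.4 and 10.1 CPM in vehicle 1 to 4. Vehicle 4 was the lowest vehicle library for all 33 members, against 20.5% of all genes, and it lay at or below the highest SSO library for 31 of them (69.5% of all genes) and below every SSO library for 23 (30.4% of all genes). For 27 members exactly 3 of the 4 vehicle libraries lay above every SSO library, against 15.2% of all genes. Only Rsad2 and Oasl1 had all 4 vehicle libraries above every SSO library, against 5.62% of all genes. The median SD of a member between libraries, on the log2 scale, was 0.36 in SSO and 1.72 in vehicle livers, where the median over all genes was 0.25 and 0.47.

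The number of calls depended on which vehicle library was left out. Without vehicle 4 edgeR called 29 members lower, where 1.43% of all genes were called lower. Without vehicle 2 it called 4 lower (Rsad2, Cmpk2, Ifit3b and Oasl1), where 9.23% of all genes were, and leaving out any other single library gave 0. In those other fits almost no gene was called lower at all: 0.0062% of all genes without vehicle 3, and 0% without vehicle 1 or without any 1 SSO library. DESeq2 on all 8 libraries called 24 members lower, against 3.97% of all genes.

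**Figure D1:**
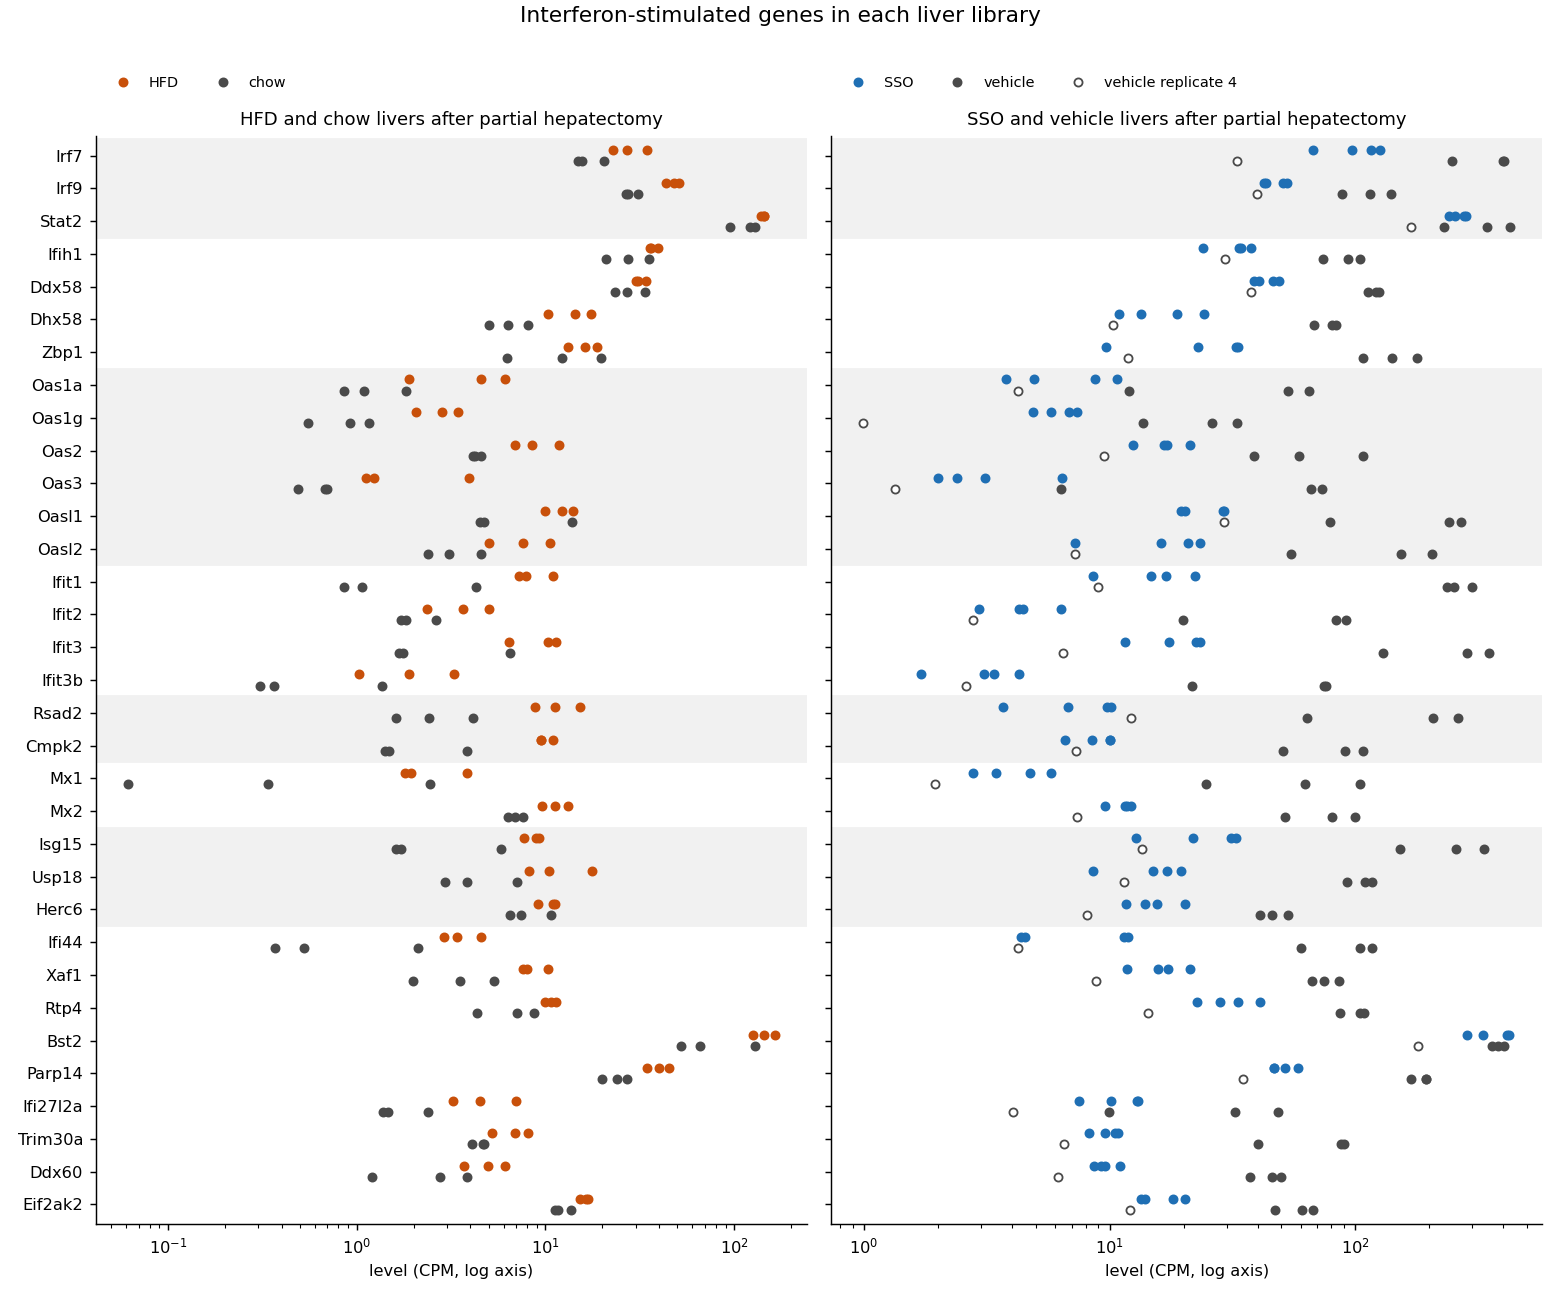
Level of each of the 33 members in every library, in CPM on a log axis, with HFD and chow on the left panel and SSO and vehicle on the right; each point is 1 library, shading groups genes by role, and open circles are vehicle replicate 4. Every HFD point lies above every chow point for 23 genes, and vehicle replicate 4 is the lowest vehicle point for all 33.

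Among the transcription factors of the pathway, Irf9 rose in HFD livers. Irf9 (chr14:55603571-55610030 on GRCm38), the DNA-binding subunit of ISGF3, had 48.2, 43.7 and 51.1 CPM in HFD 1, 2 and 3, against 31.0, 26.8 and 27.2 CPM in chow 1, 2 and 3. The groups did not overlap and both were tight, with a log2 fold change of 0.75 ± 0.13 (SE; edgeR adjusted p = 0.0184). Irf7, which drives the interferon-alpha genes, had 27.0, 22.8 and 34.4 CPM in HFD livers, against 15.7, 20.4 and 14.8 CPM in chow livers. It was also higher in every HFD library, but its change of 0.73 ± 0.19 did not pass the threshold (edgeR adjusted p = 0.0938). Stat2, another subunit of ISGF3, had 138, 143 and 144 CPM in HFD livers, against 129, 95.2 and 122 CPM in chow livers, a change of 0.30 ± 0.15 (edgeR adjusted p = 0.385). Per kilobase of exon, Stat2 was the most abundant of the 3 in the diet experiment, at 24.0 CPM in HFD and 19.4 CPM in chow livers.

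In the inhibitor experiment 0 of the 3 factors were called. Irf7 had 116, 67.3, 126 and 96.6 CPM in SSO 1 to 4, against 398, 248, 405 and 33.1 CPM in vehicle 1 to 4, so vehicle 4 lay below every SSO library and the other vehicle libraries above (log2 fold change -1.42 ± 0.61, edgeR adjusted p = 0.237). Irf9 had 52.8, 43.4, 50.6 and 42.5 CPM in SSO livers, against 88.6, 140.2, 115 and 39.8 CPM in vehicle livers, with vehicle 2 the highest (-1.02 ± 0.32, edgeR adjusted p = 0.134). Stat2 had 255, 282, 241 and 278 CPM in SSO livers, against 229, 427, 344 and 168 CPM in vehicle livers. Its vehicle values lay on both sides of the narrow SSO range, and the 95% interval of its change was -0.75 to 0.46.

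The nucleic acid sensors had the smallest median change of the role groups with the diet, 0.38. The 4 members had log2 fold changes of 0.18 to 1.12, and 0 were called, with 2 at an unadjusted p under 0.05. Ddx58, which encodes RIG-I, had 30.8, 34.3 and 30.0 CPM in HFD livers, against 33.5, 27.0 and 23.4 CPM in chow livers, with overlapping groups (edgeR adjusted p = 0.644). Zbp1, a sensor of left-handed nucleic acid helices, had 16.2, 13.2 and 18.8 CPM in HFD livers, against 6.26, 12.2 and 19.6 CPM in chow livers. Its order in the chow livers was the reverse of the usual one, with chow 1 lowest and chow 3 above every HFD library (0.35 ± 0.38, edgeR adjusted p = 0.731). Dhx58, which encodes the RIG-I relative LGP2, averaged 14.1 ± 3.58 CPM in HFD and 6.47 ± 1.52 CPM in chow livers (SD, n = 3 each) and came closest to a call (log2 fold change 1.12 ± 0.25, edgeR adjusted p = 0.0554).

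In the inhibitor experiment all 4 sensors had an unadjusted p under 0.05 and 0 were called. Ddx58 had 48.7, 38.8, 40.6 and 46.2 CPM in SSO livers, against 125, 113, 122 and 37.5 CPM in vehicle livers. Vehicle 1 to 3 lay close together, and vehicle 4 lay below every SSO library (log2 fold change -1.19 ± 0.32, edgeR adjusted p = 0.111). Zbp1 had 33.4, 9.65, 32.7 and 23.0 CPM in SSO livers, against 141, 108, 179 and 11.9 CPM in vehicle livers, and here SSO 2 was the lowest of all 8 (-2.15 ± 0.70, edgeR adjusted p = 0.151). Ifih1, which encodes the long-RNA sensor MDA5, had a change of -1.22 ± 0.33 (edgeR adjusted p = 0.111).

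The 2-5A synthetase family makes the short oligoadenylates that activate RNase L, although Oasl1 and Oasl2 are its relatives in mouse and Oasl1 lacks that enzyme activity. In HFD livers 0 of 6 members were called, with 5 at an unadjusted p under 0.05 and changes of 0.65 to 1.74. Oas2 averaged 9.04 ± 2.46 CPM in HFD and 4.31 ± 0.227 CPM in chow livers (SD, n = 3 each; 1.07 ± 0.24, edgeR adjusted p = 0.0556). Oas1g averaged 2.77 ± 0.688 CPM in HFD and 0.875 ± 0.306 CPM in chow livers (1.66 ± 0.38, edgeR adjusted p = 0.0636). Oas1a and Oas1g are close copies: 57.6% of the 50-base stretches of Oas1a transcripts also occur in Oas1g, and 45.2% the other way, so the split of reads between them is uncertain. Oasl1, the most abundant of the family per kilobase, had 14.1, 12.3 and 9.89 CPM in HFD livers, against 13.8, 4.53 and 4.70 CPM in chow livers. Chow 1 alone reached the HFD range, and the change was 0.65 ± 0.44 (edgeR adjusted p = 0.545).

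Oasl1, by a narrow margin, was 1 of 2 members with every SSO library below every vehicle library (5.62% of all genes). It had 28.9, 19.5, 29.3 and 20.3 CPM in SSO livers, against 270.1, 79.1, 241 and 29.3 CPM in vehicle livers, with vehicle 4 level with the highest SSO library (-2.66 ± 0.62, edgeR adjusted p = 0.106). Oas3 had 6.43, 2.00, 2.39 and 3.11 CPM in SSO livers, against 66.1, 6.35, 73.0 and 1.34 CPM in vehicle livers. For Oas3, chosen after its values were seen, both vehicle 2 and vehicle 4 were no higher than SSO 1, and the high values were those of vehicle 1 and 3 (-3.40 ± 1.08, edgeR adjusted p = 0.147). The family's changes in SSO livers were -3.40 to -1.57, with 5 of 6 at an unadjusted p under 0.05.

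The Ifit family encodes proteins that bind viral RNA lacking host-type cap methylation or stall its translation. In HFD livers 0 of 4 were called and all 4 had an unadjusted p under 0.05, with changes of 0.83 to 2.06. Ifit3 had 10.3, 6.38 and 11.3 CPM in HFD livers, against 6.52, 1.67 and 1.75 CPM in chow livers, so chow 1 lay just above HFD 2 and the other chow libraries far below (1.49 ± 0.55, edgeR adjusted p = 0.269). Ifit1 had 7.86, 7.22 and 11.0 CPM in HFD livers, against 4.26, 1.07 and 0.861 CPM in chow livers, with no overlap (2.06 ± 0.59, edgeR adjusted p = 0.157). Ifit3 and Ifit3b are close copies, with 51.2% of the 50-base stretches of Ifit3 transcripts found in Ifit3b and 44.5% the other way, so their separate levels are uncertain.

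All 4 Ifit genes had an unadjusted p under 0.05 in SSO livers and 0 were called. Ifit1 had 17.0, 8.59, 22.2 and 14.7 CPM in SSO livers, against 253, 236, 298 and 8.98 CPM in vehicle livers. Vehicle 1 to 3 lay far above every SSO library, and vehicle 4 lay inside the SSO range (-3.67 ± 0.85, edgeR adjusted p = 0.106). Ifit3 had 22.5, 11.5, 23.3 and 17.4 CPM in SSO livers, against 284, 129.5, 349 and 6.48 CPM in vehicle livers, and vehicle 4 was the lowest of all 8 (-3.36 ± 0.91, edgeR adjusted p = 0.116). Ifit3b and Ifit2 had changes of -3.81 ± 0.88 and -3.46 ± 0.89 (edgeR adjusted p = 0.106 and 0.111).

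Both genes of the viperin pair rose in HFD livers. Rsad2 (chr12:26442746-26456452, minus strand) encodes viperin, a radical-SAM enzyme that makes a chain-terminating nucleotide, and Cmpk2 (chr12:26469204-26479837, plus strand) a mitochondrial nucleotide kinase; they lie head to head on chromosome 12 with 12752 bases between their starts. Rsad2 had 11.2, 8.82 and 15.2 CPM in HFD 1, 2 and 3, against 4.11, 1.62 and 2.43 CPM in chow 1, 2 and 3, a log2 fold change of 2.11 ± 0.36 (edgeR adjusted p = 0.0215). Cmpk2 had 11.0, 9.46 and 9.45 CPM in HFD livers, against 3.82, 1.41 and 1.48 CPM in chow livers (2.15 ± 0.38, edgeR adjusted p = 0.0270). For both, the groups did not overlap and chow 1 was the highest chow library.

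Rsad2 had the largest fitted difference of any member between SSO and vehicle livers. It had 9.77, 3.68, 10.1 and 6.76 CPM in SSO livers, against 261, 63.5, 208 and 12.2 CPM in vehicle livers, and even vehicle 4 lay above every SSO library (-4.17 ± 0.85, edgeR adjusted p = 0.0866). Cmpk2 had 10.0, 6.55, 10.0 and 8.44 CPM in SSO livers, against 107, 50.7, 91.0 and 7.27 CPM in vehicle livers, and its vehicle 4 value lay within the SSO range (-2.87 ± 0.66, edgeR adjusted p = 0.106). Without vehicle 4 edgeR called both lower, where 1.43% of all genes were. Without vehicle 2 it also called both lower, where 9.23% of all genes were.

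The Mx genes encode dynamin-like GTPases that trap viral components, and many laboratory mouse strains carry defective alleles of them. Mx2, listed as a polymorphic pseudogene in the GRCm38 annotation, had 11.2, 13.1 and 9.57 CPM in HFD livers, against 6.88, 7.56 and 6.33 CPM in chow livers. The groups did not overlap, with a change of 0.70 ± 0.18 (edgeR adjusted p = 0.0972). Mx1 varied most among the chow livers, with 70, 60 and 130 counts in HFD 1, 2 and 3, against 95, 13 and 2 counts in chow 1, 2 and 3, and its interval was -1.03 to 3.83. In the inhibitor experiment Mx2 had 11.8, 11.6, 12.3 and 9.58 CPM in SSO livers, against 51.9, 99.7, 80.4 and 7.37 CPM in vehicle livers, where vehicle 2 was the highest and vehicle 4 below every SSO library (-2.40 ± 0.62, edgeR adjusted p = 0.111). Mx1 averaged 4.18 ± 1.35 CPM in SSO and 48.4 ± 44.9 CPM in vehicle livers (SD, n = 4 each; -3.53 ± 0.92, edgeR adjusted p = 0.111).

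Isg15 encodes a ubiquitin-like modifier, Usp18 the protease that removes it and also blocks the receptor, and Herc6 the main ISG15 ligase of mice. Isg15 had 8.93, 7.68 and 9.19 CPM in HFD livers, against 5.80, 1.62 and 1.72 CPM in chow livers. The HFD values were close together, while chow 1 was 3.58 times chow 2 and 3.37 times chow 3 (1.49 ± 0.48, edgeR adjusted p = 0.192). Usp18 averaged 12.1 ± 4.88 CPM in HFD and 4.63 ± 2.18 CPM in chow livers (SD, n = 3 each; 1.38 ± 0.39, edgeR adjusted p = 0.130). Herc6 had a change of 0.35, and 13.7% of its exon length is shared with the same-strand gene Gm45193, which makes its level uncertain.

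Isg15 was the member with the second highest vehicle level per kilobase, after Bst2. It had 32.7, 12.9, 31.2 and 21.8 CPM in SSO livers, against 258, 152, 336 and 13.5 CPM in vehicle livers, with vehicle 4 inside the SSO range (-2.94 ± 0.78, edgeR adjusted p = 0.112). Usp18 averaged 15.1 ± 4.74 CPM in SSO and 82.8 ± 48.7 CPM in vehicle livers (SD, n = 4 each; -2.46 ± 0.61, edgeR adjusted p = 0.111). Herc6 had a change of -1.27 ± 0.48 (edgeR adjusted p = 0.188).

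Of the 9 other effectors, Parp14 rose in HFD livers. Parp14 (chr16:35832874-35871544), an ADP-ribosyltransferase, had 34.6, 39.8 and 45.4 CPM in HFD livers, against 23.9, 26.9 and 19.9 CPM in chow livers (0.76 ± 0.16, edgeR adjusted p = 0.0439), and leaving out any 1 library ended this call. Bst2, the most abundant member per kilobase in all 4 groups, had 164, 126 and 143 CPM in HFD livers, against 129, 52.5 and 66.1 CPM in chow livers. Chow 1 reached the HFD range and the other chow libraries did not (0.81 ± 0.32, edgeR adjusted p = 0.287). Ifi27l2a, a small hydrophobic protein, averaged 4.91 ± 1.92 CPM in HFD and 1.75 ± 0.558 CPM in chow livers (SD, n = 3 each; 1.49 ± 0.36, edgeR adjusted p = 0.0780). Xaf1, a partner of the apoptosis inhibitor XIAP, averaged 8.66 ± 1.47 CPM in HFD and 3.61 ± 1.67 CPM in chow livers (1.26 ± 0.34, edgeR adjusted p = 0.106). The remaining 5, Ifi44, Rtp4, Trim30a, Ddx60 and the RNA-dependent kinase Eif2ak2, had changes of 0.40 to 1.84; for Rtp4, 13.9% of the exon length is shared with the same-strand gene Gm45338.

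Bst2 set itself apart in the inhibitor experiment. It had 413, 284, 424 and 331 CPM in SSO livers, against 379.8, 359, 403 and 179.8 CPM in vehicle livers, so that SSO 1 and SSO 3 were above every vehicle library. Its change of 0.14 ± 0.27 had a 95% interval of -0.46 to 0.74 and turned negative with scaling by library size alone (-0.052) or without vehicle 4 (-0.055). Parp14 had 58.4, 46.5, 51.9 and 46.8 CPM in SSO livers, against 194, 168, 195 and 35.0 CPM in vehicle livers (-1.54 ± 0.44, edgeR adjusted p = 0.120). Trim30a averaged 9.77 ± 1.16 CPM in SSO and 56.2 ± 40.3 CPM in vehicle livers (SD, n = 4 each; -2.52 ± 0.65, edgeR adjusted p = 0.111). The other effectors but Bst2 had changes of -3.15 to -1.12.

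**Figure D2:**
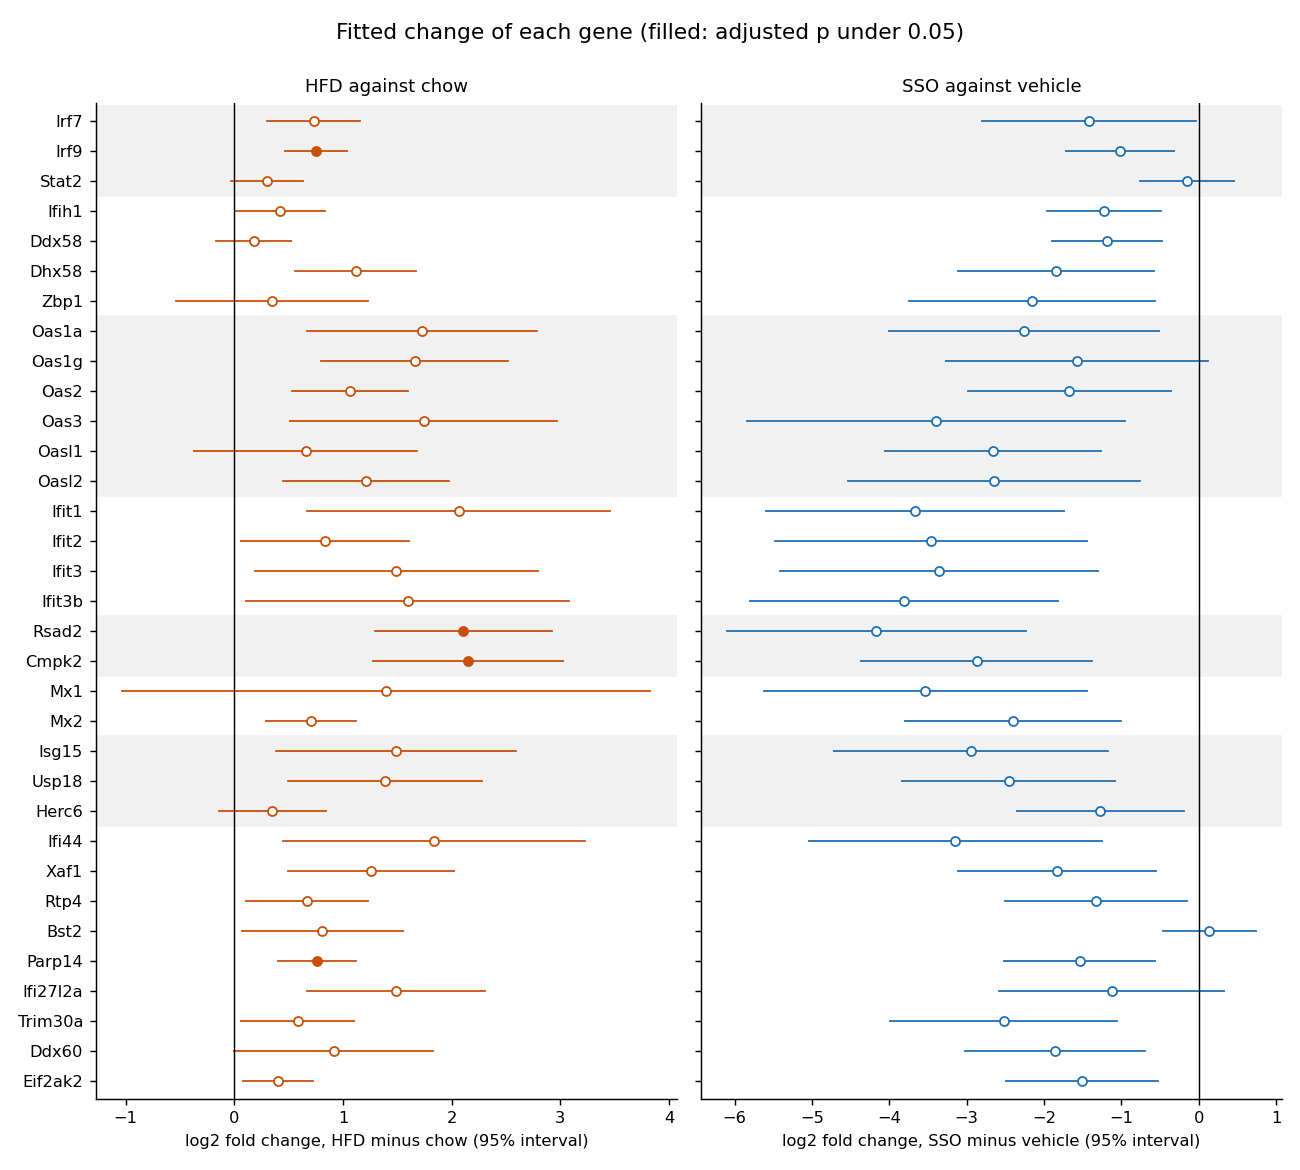
Fitted log2 fold change of each member with its 95% interval, HFD minus chow on the left and SSO minus vehicle on the right, shaded by role; filled points have an edgeR adjusted p under 0.05. All 33 points lie above 0 on the left, and 32 lie below 0 on the right, where Bst2 lies at 0.14 and no point is filled.

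Taking the experiments side by side, 32 members had a change above 0 with HFD and below 0 with SSO. The share of all genes with such opposite signs is not given. The experiments share no control library, and their changes were not tested against each other. Liver was taken 40 hours after PHx in one and 48 hours in the other. Y-linked genes had 4322 to 6709 counts in the diet libraries and 0 in the inhibitor libraries, so the sexes differ by expression. The ranking of the members was not the same in both. Rsad2 and Ifit1 were among the largest in each, at 2.11 and 2.06 with HFD and -4.17 and -3.67 with SSO. Oas1g had 1.66 with HFD but -1.57 with SSO, and Zbp1 0.35 with HFD but -2.15 with SSO.

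The vehicle livers with high levels were not alike in which members were high. Vehicle 1 lay close to vehicle 3 for most members, with ratios of vehicle 1 to vehicle 3 of 0.546 to 1.26 and a median of 0.891. Vehicle 2 ran from 0.0870 of vehicle 3 for Oas3 to 1.24 times vehicle 3 for Stat2, with a median of 0.603, where the median over all genes was 0.973. It lay above vehicle 3 for 6 members (Irf9, Stat2, Mx2, Rtp4, Herc6 and Ddx60), against 48.1% of all genes. It lay under 1/4 of vehicle 3 for 5 (Ifit2, Oas1a, Oas3, Mx1 and Ifi27l2a), against 9.51% of all genes. These are ratios of single libraries, with no test. For example, Oas3 had 6.35 CPM in vehicle 2 and 73.0 CPM in vehicle 3, whereas Ddx58 had 113 CPM in vehicle 2 and 122 CPM in vehicle 3. The spread of these ratios over all genes is not given. Vehicle 2 also had the fewest genes with counts, 18104, where the other libraries of the experiment had 19639 to 20864.

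**Figure D3:**
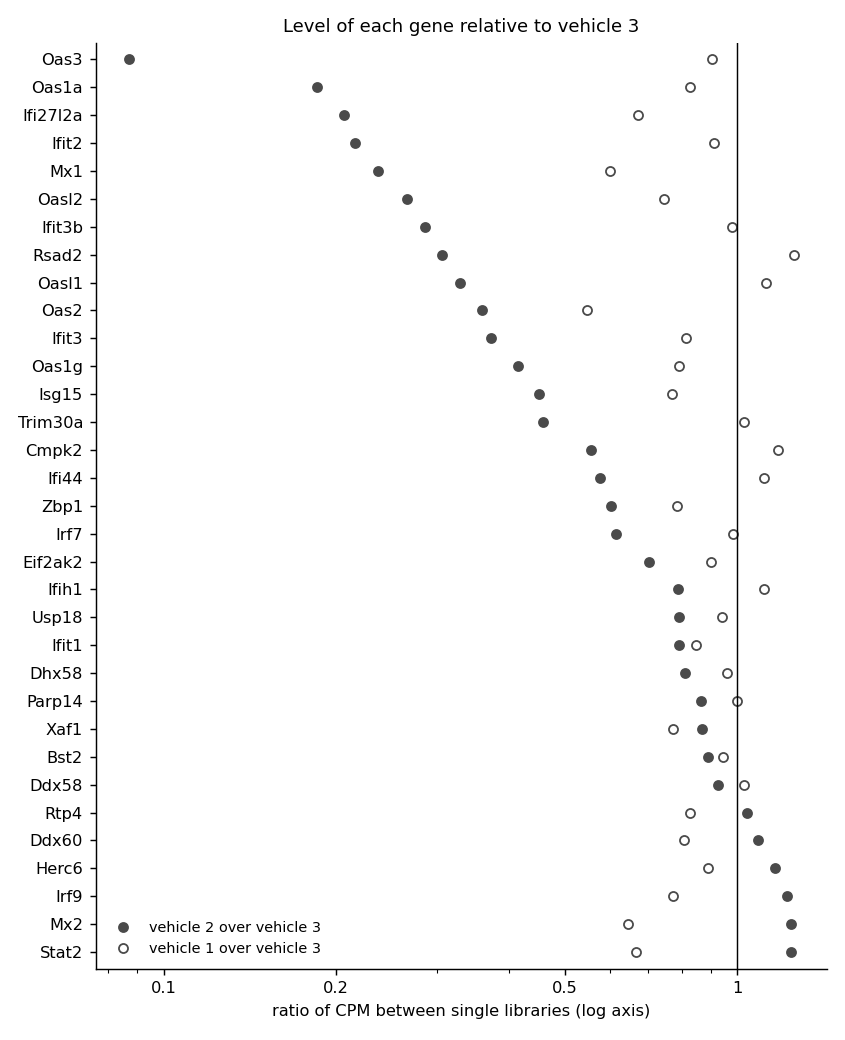
Ratio of the level in vehicle 2 (filled) and vehicle 1 (open) to that in vehicle 3 for each of the 33 members, on a log axis, ordered by the filled points. The open points run from 0.546 to 1.26 and the filled points from 0.0870 to 1.24.

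Markers of recruited monocytes and macrophages differed between the vehicle libraries in another way. The 6 markers Ly6c2, Ccr2, Chil3, Itgam, Lyz2 and Cd68, of which all 6 were tested, 5 had an unadjusted p under 0.05 and 0 were called, summed to 29.7, 38.6, 31.3 and 37.0 CPM in SSO 1 to 4, against 426, 37.5, 485 and 79.8 CPM in vehicle 1 to 4. None of the 6 was at 0 in any library. Vehicle 1 and 3 were high in both the markers and the interferon genes. Vehicle 2 lay inside the SSO range for the marker sum while 30 members lay above every SSO library in it, against 28.5% of all genes. The single markers of vehicle 2 went different ways. Lyz2, at 23.0 CPM, was above every SSO library, and Cd68, Chil3 and Itgam, at 8.17, 1.18 and 0.182 CPM, were below every SSO library. Only Ly6c2 and Ccr2 lay inside the SSO range. The 7 Kupffer cell markers summed to 281, 345, 197 and 249.6 CPM in SSO 1 to 4, against 481, 116, 384 and 104 CPM in vehicle 1 to 4, so that vehicle 2 was below every SSO library. In bulk tissue, fewer cells of a type and less RNA per cell cannot be told apart, and the part of these cells in the interferon result was not tested. Without vehicle 1 and 3, edgeR called 0 members, where 0.0779% of all genes were called lower, and the median change was -1.14.

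In the diet experiment these 2 marker sums overlapped between the groups, while those of 3 other lists did not. Of the 3, 1 holds Ptprc alone. The sums for hepatocytes, neutrophils, T and NK cells, B cells, sinusoidal endothelial cells and cholangiocytes overlapped as well. Among single genes, 11.2% of all had every HFD library above every chow library. Monocyte and macrophage markers summed to 34.9, 30.6 and 41.0 CPM in HFD livers, against 22.9, 39.1 and 32.1 CPM in chow livers. Kupffer cell markers summed to 207, 169.9 and 319 CPM in HFD livers, against 97.5, 205 and 239 CPM in chow livers, and chow 1, the chow library with the highest interferon genes, was lowest in both sums. Plasmacytoid dendritic cell markers, of which 2 of 5 passed the filter and 0 were called, summed to 1.46, 2.42 and 1.12 CPM in HFD livers, against 0.642, 0.549 and 0.430 CPM in chow livers. These groups did not overlap, and Pacsin1, Klk1 and Cox6a2 were at 0 in 2, 2 and 4 of the 6 libraries. Siglech, the receptor that marks these cells, had 0.772, 1.21 and 0.768 CPM in HFD livers, against 0.205, 0.0523 and 0.369 CPM in chow livers (edgeR adjusted p = 0.164). The chow values stand for 8, 2 and 12 counts. Ccr9 had 0.303, 0.907 and 0.177 CPM in HFD livers, against 0.308, 0.340 and 0.0615 CPM in chow livers, so its groups overlapped. The leukocyte gene Ptprc had 6.75, 7.59 and 8.71 CPM in HFD livers, against 6.29, 5.57 and 5.96 CPM in chow livers (edgeR adjusted p = 0.417). The 5 stellate cell markers, of which 0 were called, summed to 280.4, 214 and 217 CPM in HFD livers, against 304, 303 and 309.5 CPM in chow livers, so every HFD library was higher for Ptprc and lower for the stellate sum. The part of these cells in the interferon result was not tested.

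The sum of the plasmacytoid dendritic cell markers also separated the inhibitor groups, but not each marker did. Of all genes, 5.62% had every SSO library below every vehicle library. The markers summed to 1.26, 0.874, 1.93 and 0.858 CPM in SSO 1 to 4, against 3.14, 2.00, 4.68 and 4.80 CPM in vehicle 1 to 4, with 3 of 5 tested and 0 called. Vehicle 4, the lowest vehicle library for all 33 members, had the highest sum, of which Cox6a2 made up 3.70 CPM. In vehicle 2, Ccr9 made up 1.54 CPM of the sum. Siglech had 0.186, 0.0728, 0.428 and 0.107 CPM in SSO livers, against 1.26, 0.454, 2.04 and 0.548 CPM in vehicle livers, without overlap (edgeR adjusted p = 0.134). Pacsin1, Klk1 and Cox6a2 were at 0 in 4, 3 and 3 of the 8 libraries, and the part of these cells was not tested.

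**Figure D4:**
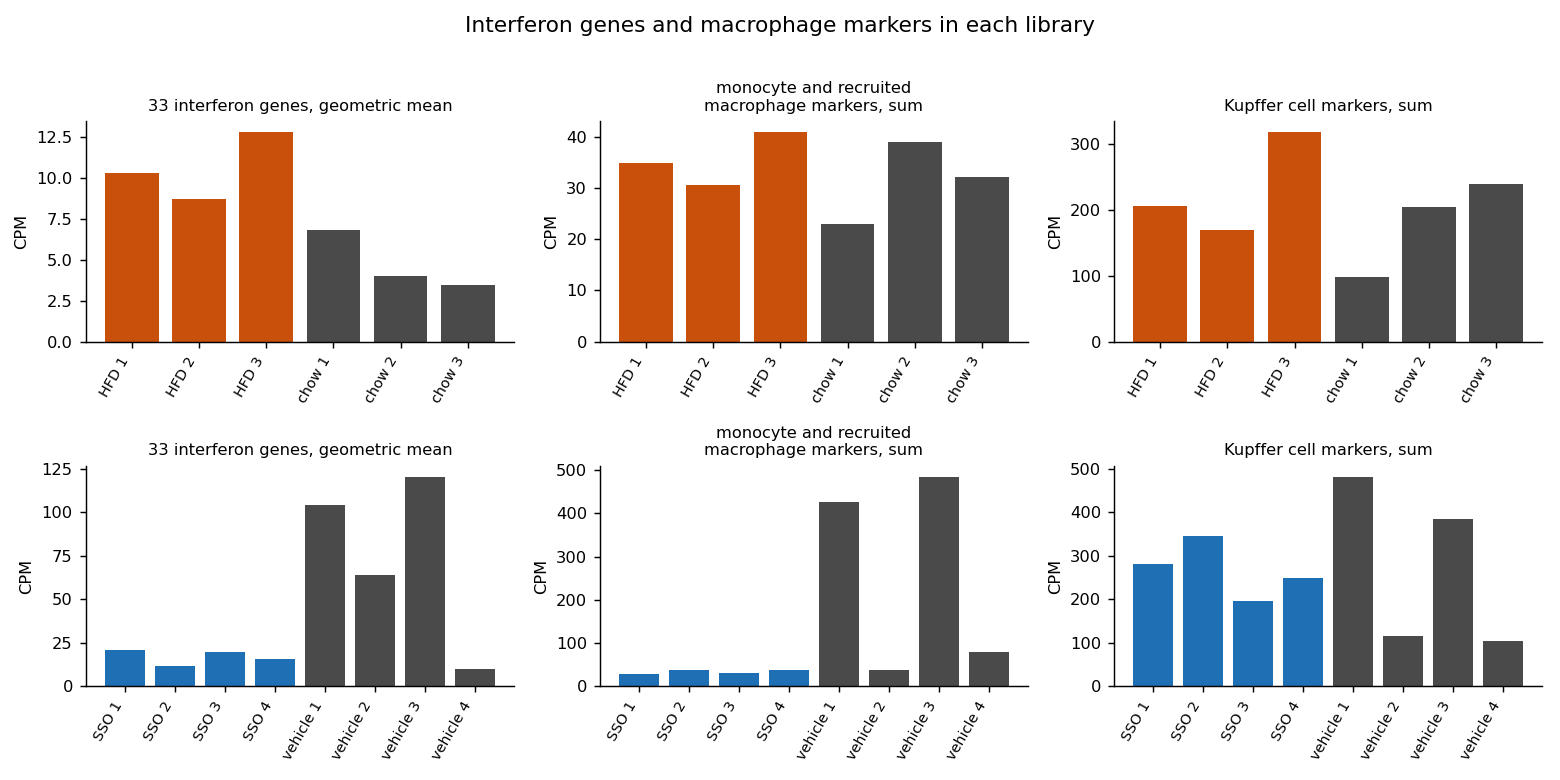
Geometric mean CPM of the 33 interferon genes (left) and summed CPM of the monocyte and recruited macrophage markers (middle) and of the Kupffer cell markers (right), one bar per library, with the diet experiment above and the inhibitor experiment below. Vehicle 2 has a high bar for the interferon genes, 63.7 CPM, and a marker sum of 37.5 CPM in the middle panel, within the SSO values.

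Counts for the interferon genes themselves were almost absent from these libraries. Of 21 ligand genes, 0 passed the filter on low counts in either experiment. Ifnb1, the interferon-beta gene, and every interferon-alpha and interferon-lambda gene listed had 0 counts in all 14 libraries. Ifnk had at most 5 counts in a diet library and 8 in an inhibitor library, and Ifng, the type II interferon gene, had 4 counts in total, all in vehicle 4. A count of 0 allows up to 3 counts, so levels below about 0.1 CPM were not detectable at this depth; such floors cover counting error only.

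The receptor genes showed no called change. Ifnar1 had 42.2, 37.0 and 45.4 CPM in HFD livers, against 28.4, 34.9 and 47.8 CPM in chow livers (0.16 ± 0.19, edgeR adjusted p = 0.748). Ifnar2 had 31.3, 34.8, 29.8 and 32.2 CPM in SSO livers, against 30.3, 29.3, 30.9 and 36.9 CPM in vehicle livers, a change with a 95% interval of -0.29 to 0.30. For Ifnar1 in SSO livers the change was -0.36 ± 0.17 (edgeR adjusted p = 0.262), and for Ifnar2 in HFD livers 0.17 ± 0.13 (edgeR adjusted p = 0.592). Of the 10 receptor and kinase genes 0 were called in either experiment, with 1 at an unadjusted p under 0.05 in HFD livers and 2 in SSO livers.

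Over 6 lists of the pathway with 104 genes, of which 81 were tested, edgeR called 2 higher in HFD livers, where 1.6% of all genes were called higher, and 0 in SSO livers, where 0.133% were called lower. These counts lie near those shares. Both belong to the 38 other interferon-stimulated genes. Cxcl10, a chemokine that draws T cells, had 3.91, 2.02 and 4.40 CPM in HFD livers, against 0.950, 0.471 and 0.584 CPM in chow livers (2.36 ± 0.42, edgeR adjusted p = 0.0246). Tdrd7, a tudor-domain protein, had 41.7, 41.3 and 38.3 CPM in HFD livers, against 28.9, 28.3 and 26.4 CPM in chow livers (0.54 ± 0.11, edgeR adjusted p = 0.0488). Neither gene's groups overlapped. In SSO livers Cxcl10 had 6.20, 2.88, 6.81 and 3.22 CPM, against 94.0, 27.3, 127 and 2.02 CPM in vehicle livers, again with vehicle 4 below every SSO library (-3.71 ± 0.99, edgeR adjusted p = 0.113).

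The wider lists had medians nearer 0 than that of the members. The 38 other interferon-stimulated genes had a median change of 0.34 with HFD, with 30 above 0 and 12 at an unadjusted p under 0.05, and a median of -0.93 with SSO, with 36 below 0 and 25 at an unadjusted p under 0.05. The 12 interferon-gamma genes, which include the guanylate-binding proteins and the immunity-related GTPases, had medians of 0.63 and -1.22, with 5 higher and 6 lower at an unadjusted p under 0.05 and 0 called in either experiment. The 13 tested genes of the induction pathway and the 8 tested negative regulators had medians of 0.17 and 0.24 with HFD and -0.71 and -0.32 with SSO, again with 0 called. These counts describe the lists and were not compared by a test.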

How the data were processed

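The authors deposited read counts per gene for each liver library, for which Trim Galore (0.6.1), the aligner HISAT2 (2.2.1), the counter featureCounts (2.0.2), DESeq2 and the build GRCm38 (mm10) are named per the submitters' processing notes. The strand setting is not given in the sources used here, so antisense reads cannot be told apart. Another 12 value columns were not used here. The members and gene lists were chosen with earlier results of these data known.

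Each table was fitted by itself in R 4.3.3 with edgeR 4.0.16 (robust quasi-likelihood test, TMM scaling, filterByExpr, Benjamini-Hochberg adjustment over all genes tested), with calls below an adjusted p of 0.05. CPM use TMM-scaled library sizes. Alternatives used DESeq2 1.42.0, limma 3.58.1 (voom), other scalings, no filter, a replicate block and left-out libraries. The scripts were tested on simulated data. No 2 replicates agreed within sampling noise.

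Values in every library are given for called members, for the most abundant member per exon length of each role, and for Irf7, Stat2, Irf9, Isg15 and Bst2; up to 14 members per experiment, by smallest p, have their full statistics. Of the pathway lists, called genes and Ifnb1, Ifnar1, Ifnar2 and Cxcl10 are named; 1 further gene of the rule is not reported here.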

Additional observations from a re-analysis of the deposited data

Results flagged for a closer look

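For 10 members, 1 vehicle library lay far from the other 3 by Dixon's test at the 95% level, and in all 10 it was vehicle 4, on the low side. Its levels were 8.98 CPM for Ifit1, 11.5 CPM for Usp18, 37.5 CPM for Ddx58, 10.3 CPM for Dhx58 and 8.77 CPM for Xaf1. They were 14.3 CPM for Rtp4, 179.8 CPM for Bst2, 35.0 CPM for Parp14, 8.06 CPM for Herc6 and 6.17 CPM for Ddx60. Chance flags about 1 in 20 groups, and 66 groups of 4 libraries were examined, which share their libraries.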

How the results depend on the processing

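The median change of the members kept its direction under every alternative run: 0.84 to 1.31 with HFD when 1 library was left out, and -2.52 to -1.71 with SSO, or -1.14 without vehicle replicates 1 and 3. Members called with HFD (4) numbered 19 with DESeq2, 7 with library size only, 13 with no filter and 0 to 17 with 1 library left out; all genes called (361) numbered 865 with DESeq2, 672 with no filter and 86 to 681; pathway genes (2) numbered 6, 5 with library size only, 5 with no filter and 0 to 9. Members called with SSO (0) numbered 24 with DESeq2 and 0 to 29 with 1 library left out; all genes (71) numbered 1137 with DESeq2, 37 with library size only, 205 with no filter and 0 to 2646; pathway genes (0) numbered 27, 2 with no filter and 0 to 37. Reversed changes were Bst2 with library size only (-0.052) and without vehicle 4 (-0.055; -0.055 to 0.26 with 1 library left out), Stat2 without vehicle 2 (0.10; -0.33 to 0.10 with 1 library left out) and Ifi27l2a without vehicles 1 and 3 (0.65). Apart from the left-out libraries, the cause was not tested. Library size only moved the median of all genes to 0.13 with HFD and -0.20 with SSO. Replicate numbers gave no sign of paired samples: same-numbered deviations correlated at 0.019, -0.106 and -0.001 with the diet and -0.075 to 0.031 with SSO. Those with different numbers correlated at -0.149 to 0.173 and -0.047 to 0.061. With so few libraries this cannot show that the samples were unpaired. With the replicate block, 2 members, 206 genes and 1 pathway gene were called with HFD, and 0, 47 and 1 with SSO. Counts near the floor of 3 limit the ligands and, of the plasmacytoid dendritic cell markers, Pacsin1, Klk1 and Cox6a2 with the diet. In the inhibitor experiment these 3 markers were at 0 in 4, 3 and 3 of the 8 libraries. Siglech was at or under this floor with 2 counts in chow 2, 2 in SSO 2 and 3 in SSO 4. Ccr9 was under it with 2 counts in chow 3. The member Mx1 was under it with 2 counts in chow 3. Of the monocyte and macrophage markers, Itgam had 1 count in chow 1, Ly6c2 had 2 in chow 2 and Lyz2 had 1 in SSO 1.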

Other observations

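Lyz2, the lysozyme gene of macrophages and other myeloid cells, varied among the SSO libraries. It had 0.0371, 11.3, 0.428 and 8.01 CPM in SSO 1 to 4, against 189, 23.0, 189 and 41.6 CPM in vehicle 1 to 4. SSO 1 held 1 count of it and SSO 3 held 12, where SSO 2 and SSO 4 held 311 and 224. It was singled out after its values were seen, and its cause was not tested.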
